A study of Homo sapiens with 2 samples.

Results

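The transcription factors CDX1, CDX2, HNF4A, HNF4G, GATA4, GATA6 and ISX were examined as the set of factors that gives intestinal epithelium its identity. The members were chosen by gene symbol: all 7 had a row among the 52402 gene symbols, and 5 of them reached the mean of 1 CPM (counts per 1000000) that 12644 compared genes reached. RNA was sequenced from DLD1, a human colorectal adenocarcinoma cell line, in 1 control library labelled wild type and 1 library labelled as a knockout of HERV-R, an endogenous retrovirus whose envelope gene (env) the study's title names. Both carry the same description of a transfection with a Cas9 vector and a guide RNA vector followed by hygromycin selection of colonies. The sources used here do not say which vectors went into the control cells, nor if either library is a single clone. The 2 libraries are called control and KO-labelled.

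The control library held 21881122 counts and the KO-labelled library 16406308. ERV3-1, taken as the HERV-R locus, had 127 counts in control cells and 125 in KO-labelled cells, so its RNA was not lower there (a ratio of 1.31 in CPM; 1.02 to 1.69). A gene count does not show a small edit, and every direction given here rests on the label. With 1 library per group there is no spread between replicates and no test of the knockout. Intervals in parentheses are 95% and cover counting error only, and "higher" and "lower" describe these 2 libraries. A gene was counted as higher or lower when its CPM, with 1 CPM added in both libraries, differed at least 2-fold. Of the compared genes, 6.78% were higher and 5.69% lower in KO-labelled cells, which is 857 and 719 genes. With TMM scaling the split was 601 and 879.

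In GENCODE release 29 on GRCh38, CDX1 lies on chromosome 5 (150166795 to 150184558, plus strand) and CDX2 on chromosome 13 (27962137 to 27971139, minus strand). HNF4A lies on chromosome 20 (44355700 to 44434596, plus strand) and HNF4G on chromosome 8 (75407914 to 75566843, plus strand). GATA4 lies on chromosome 8 (11676959 to 11760002, plus strand), GATA6 on chromosome 18 (22169443 to 22202528, plus strand) and ISX on chromosome 22 (35066136 to 35087387, plus strand).

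CDX2 and its paralog CDX1 are caudal-type homeobox factors that set the intestinal programme in the embryo and keep it in the adult crypt. HNF4A and HNF4G are nuclear receptors that share many binding sites in enterocytes and drive genes of the brush border and of lipid handling. GATA6 is a zinc finger factor active along the whole intestine, while GATA4 acts in the proximal small intestine and is normally not found in colon. ISX is an intestinal homeobox factor, induced by retinoic acid, that represses genes for carotenoid uptake and cleavage.

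RefSeq promoter windows (GRCh38.p14) matched 4 of the 7 members: CDX2, HNF4A, GATA6 and ISX. The stretches that bear on how the counts are read follow, 5′ to 3′ on the strand of the gene, with matches to a GATA motif (AGATAA or its reverse TTATCT) in capitals. HNF4A is shown because its row covers 2 RefSeq starts that lie 45540 bases apart. GATA6 and its antisense gene GATA6-AS1 are shown because their starts lie 621 bases apart on opposite strands. CDX2, the member with the most counts in KO-labelled cells, is shown around its GATA match only, since the whole RefSeq window of CDX2 lies within an exon of the longer GENCODE transcript, so that the match stands in annotated transcribed sequence.
HNF4A, distal start, chr20:44355449-44355698, plus strand: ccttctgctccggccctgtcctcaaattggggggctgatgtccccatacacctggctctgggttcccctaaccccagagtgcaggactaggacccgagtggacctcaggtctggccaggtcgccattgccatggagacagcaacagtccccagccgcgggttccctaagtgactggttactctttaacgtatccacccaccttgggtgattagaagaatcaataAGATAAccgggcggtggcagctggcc
HNF4A, proximal start, chr20:44400989-44401238, plus strand: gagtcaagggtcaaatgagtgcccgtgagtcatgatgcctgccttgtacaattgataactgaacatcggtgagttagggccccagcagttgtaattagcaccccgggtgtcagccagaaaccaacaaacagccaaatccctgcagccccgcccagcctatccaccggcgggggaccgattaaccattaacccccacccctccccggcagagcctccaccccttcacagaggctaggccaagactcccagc
GATA6, upstream stretch outside annotated exons, chr18:22169339-22169408, plus strand: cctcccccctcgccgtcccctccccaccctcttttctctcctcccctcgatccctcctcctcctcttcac
GATA6-AS1, chr18:22168969-22169218, minus strand: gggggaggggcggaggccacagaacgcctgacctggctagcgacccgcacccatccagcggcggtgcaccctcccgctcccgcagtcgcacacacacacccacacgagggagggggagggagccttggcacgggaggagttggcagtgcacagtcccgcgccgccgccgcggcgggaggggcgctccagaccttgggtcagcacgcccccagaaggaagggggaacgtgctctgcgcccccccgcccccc
CDX2, chr13:27969417-27969446, minus strand: cctccctcccctTTATCTtttaaaatgcaa

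The motifs were searched on both strands of the windows from 250 bases before to 50 bases after each start. The GATA motif begins 119 bases before the RefSeq start of CDX2 and 26 bases before the distal start of HNF4A. No window of GATA6, ISX or the proximal HNF4A start held these letters, which stand in 10.3% of all 35116 windows. Other forms of the motif were not searched, such as TGATAA in the proximal HNF4A stretch printed above, or its reverse in the ISX window. A CDX motif (TTTATG or CATAAA, in 10.6% of windows) and an HNF4 motif (CAAAGTCC or GGACTTTG, in 1.20%) had 0 matches in the windows of the 4 members. No match therefore overlapped another motif. A match of letters is a description and not a binding site.

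CDX2 and HNF4G were about 3-fold higher in KO-labelled cells, HNF4A, GATA6 and ISX lay within 2-fold, and CDX1 and GATA4 had 0 counts in both libraries. Of the 5 members with a level of at least 1 CPM in both libraries, 2 were higher and 0 lower, beside 6.78% and 5.69% of all compared genes. Their median log2 ratio (KO-labelled over control, 1 CPM added) was 0.26, against 0.12 for all compared genes. The other scalings, which move the ratio of library sizes by -0.12 to -0.16 on the log2 scale, left these counts at 2 and 0. In bulk RNA, a change in the number of cells that express a gene and a change in RNA per cell cannot be told apart.

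**Figure D1:**
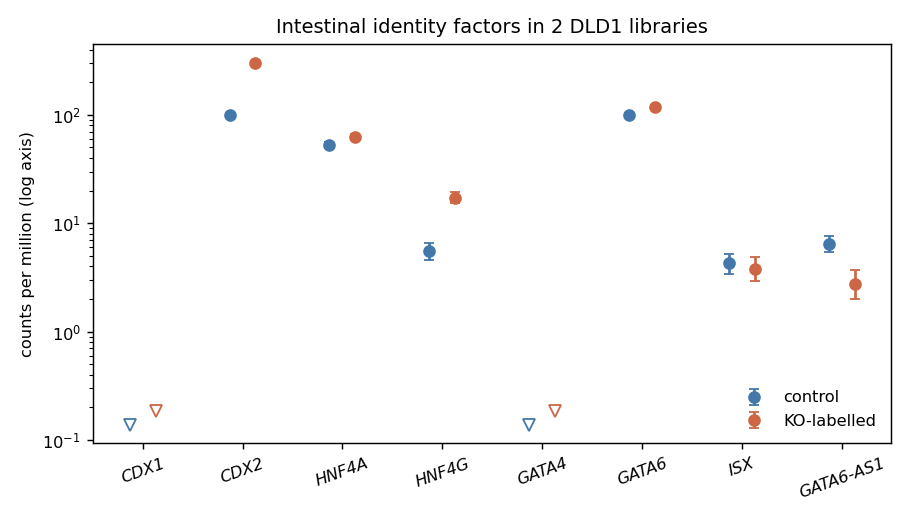
Level of each member and of GATA6-AS1 in control cells (blue) and the KO-labelled library (orange), in CPM on a log axis. Bars are exact 95% Poisson counting intervals, and open triangles mark genes with 0 counts, drawn at the 3-count limit of 0.137 and 0.183 CPM. CDX2 and HNF4G stand apart between the libraries, and HNF4A, GATA6 and ISX stand close together.

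CDX2 had 2176 counts in control cells (99.4 CPM) and 4892 in KO-labelled cells (298 CPM). The KO-labelled library was thus the higher, by 2.998-fold (2.85 to 3.16), a log2 ratio of 1.57 with 1 CPM added. Only 1.04% of the compared genes had a higher log2 ratio. Over the other scalings and pseudocounts the log2 ratio of CDX2 ran from 1.42 to 1.58. CDX1, which in intestine is expressed beside CDX2, had 0 counts in both libraries. A count of 0 allows up to 3 counts, or 0.137 CPM in control cells and 0.183 CPM in KO-labelled cells, so a difference in CDX1 was not detectable at this depth. All counts of the CDX pair therefore came from CDX2. The third human family member, CDX4, also had 0 counts in both.

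HNF4G had 120 counts in control cells (5.48 CPM) and 283 in KO-labelled cells (17.2 CPM), 3.15-fold higher (2.53 to 3.93). Its log2 ratio was 1.49, and it ran from 1.09 with a pseudocount of 5 CPM to 1.64 with 0.1 CPM. HNF4A, the more abundant paralog, had 1152 counts (52.6 CPM) in control cells and 1035 (63.1 CPM) in KO-labelled cells. That is a ratio of 1.20 (1.10 to 1.30) and a log2 ratio of 0.26, which was 0.10 with the median of gene ratios as the scaling. HNF4A and HNF4G did not keep their proportion. HNF4G gave 9.43% of the counts of the HNF4 pair in control cells (7.88 to 11.2) and 21.5% in KO-labelled cells (19.3 to 23.8; Clopper-Pearson intervals). This share compares counts within a library, so no scaling between libraries enters it. Summed, the HNF4 pair had 58.1 CPM in control cells and 80.3 CPM in KO-labelled cells, 1.38-fold higher (1.28 to 1.49). The HNF4A row covers the distal and proximal starts printed above, among 4 starts in GENCODE's basic set. The counts do not show which of these is used. The processed pseudogene HNF4GP1 and the antisense gene HNF4A-AS1 had 0 counts in both libraries.

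GATA6 had 2203 counts in control cells (101 CPM) and 1949 in KO-labelled cells (119 CPM), a ratio of 1.18 (1.11 to 1.25). Its log2 ratio of 0.24 was 0.08 with the median of gene ratios as the scaling. GATA4 had 0 counts in both libraries, as did its relatives GATA1 and GATA5. While GATA6 lay within 2-fold, GATA6-AS1, the antisense RNA that starts beside GATA6, was lower. It had 142 counts in control cells (6.49 CPM) and 45 in KO-labelled cells (2.74 CPM), 2.37-fold lower (1.68 to 3.39). It stood on the 2-fold line at a log2 ratio of -1.001, and at -0.57 with a pseudocount of 5 CPM. In counts within a library, GATA6-AS1 stood at 0.0645 per GATA6 count in control cells and at 0.0231 in KO-labelled cells. The gene spans of GATA6 and GATA6-AS1 overlap by 436 bases in GENCODE. The sources used here do not say if counting used the strand, so reads in the overlap may stand in either row.

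ISX had 93 counts in control cells (4.25 CPM) and 62 in KO-labelled cells (3.78 CPM). The ratio of 0.889 (0.634 to 1.24) has an interval that includes 1, so no difference in ISX was detectable at this depth. ISX counts per CDX2 count were 0.0427 in control cells and 0.0127 in KO-labelled cells. The RNA of the ISX-AS1 row was at 0 in both.

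Ratios between members within a library do not depend on the scaling. CDX2 counts per GATA6 count were 0.988 in control cells and 2.51 in KO-labelled cells, a change of 2.54-fold (2.35 to 2.75, from a normal approximation on the log scale). CDX2 counts per HNF4A count changed 2.50-fold (2.27 to 2.76), from 1.89 to 4.73. HNF4G counts per HNF4A count changed 2.62-fold (2.09 to 3.30). GATA6 counts per HNF4A count were 1.91 and 1.88, a change of 0.985-fold (0.888 to 1.09). ISX counts per HNF4A count changed 0.742-fold (0.532 to 1.03). The intervals for CDX2 and HNF4G relative to HNF4A thus excluded 1, and those for GATA6 and ISX included it. CDX2 made up 37.9% of the members' summed counts in control cells (36.6 to 39.2) and 59.5% in KO-labelled cells (58.4 to 60.6). The 7 members summed to 263 CPM in control cells and 501 CPM in KO-labelled cells. Without CDX2, the sum was 163 and 203 CPM, a ratio of 1.24 (1.19 to 1.30).

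**Figure D2:**
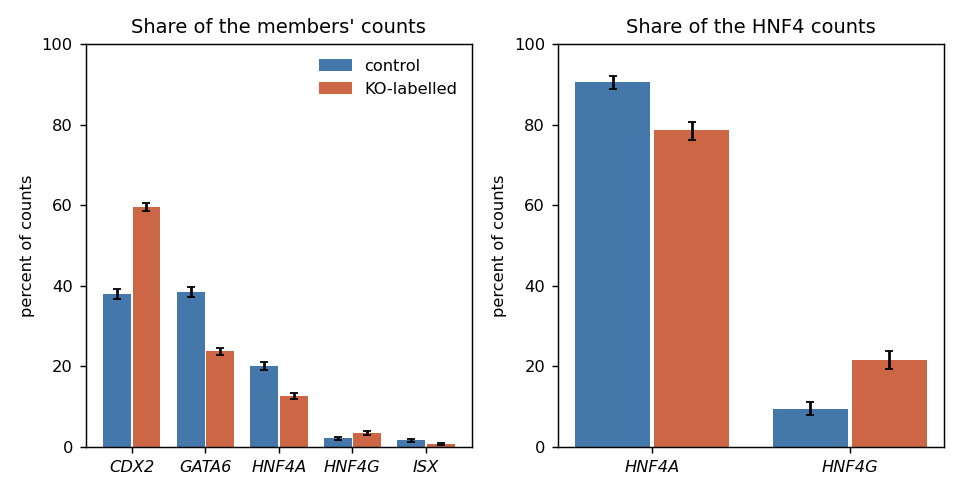
Percent of the summed counts that each member holds within a library, for all members with counts (left) and for the HNF4 pair (right), with exact 95% binomial intervals. The share of CDX2 is 37.9% in control cells and 59.5% in KO-labelled cells, and that of HNF4G within the HNF4 pair is 9.43% and 21.5%.

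Levels of different genes were compared per kilobase of exon in GENCODE's basic set. In the control, GATA6 (25.5 CPM per kb; 24.5 to 26.6) and CDX2 (24.5 CPM per kb; 23.5 to 25.6) stood highest, with overlapping counting intervals. HNF4A followed at 7.31 CPM per kb, then ISX at 1.26 (1.01 to 1.54) and HNF4G at 1.23 (1.02 to 1.47), whose intervals also overlap. In the KO-labelled library CDX2 stood alone at the top at 73.6 CPM per kb. GATA6 followed at 30.1, HNF4A at 8.75, HNF4G at 3.87 and ISX at 1.12 CPM per kb. HNF4G and ISX, whose intervals overlap in control cells, had intervals that do not overlap there (3.43 to 4.35 and 0.856 to 1.43 CPM per kb). The place of CDX2 depends on the gene model. GENCODE starts CDX2 1824 bases before RefSeq. With GENCODE exons cut to the RefSeq span, its level was 44.6 CPM per kb in control cells, above GATA6 at 26.5. RefSeq also ends CDX2 further 3′, at 27960918 against 27962137 in GENCODE, and that stretch was not added to the length. If the stretch is exon, the value of 44.6 CPM per kb is too high.

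**Figure D3:**
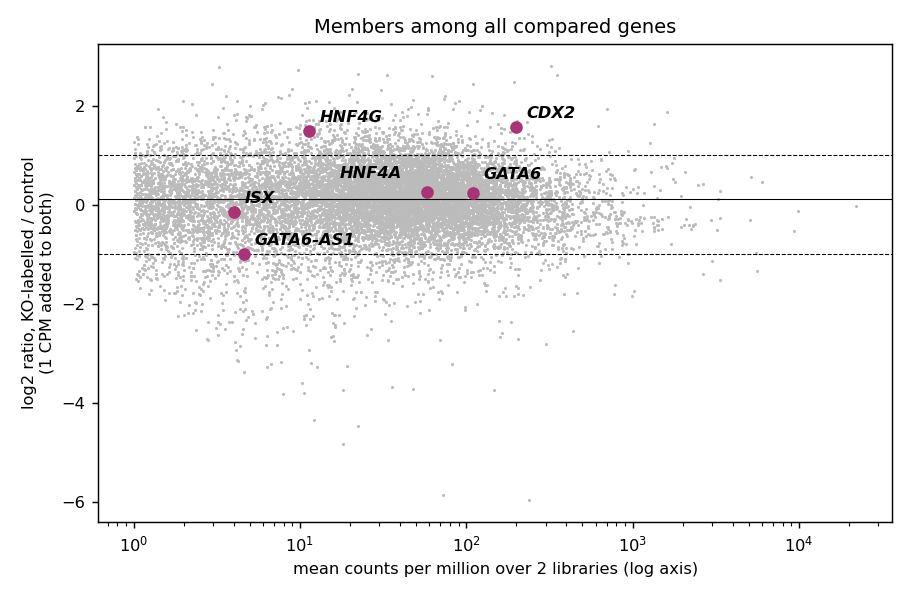
Log2 ratio (KO-labelled over control, 1 CPM added) against mean CPM on a log axis for the 12644 compared genes (grey), with the members and GATA6-AS1 in purple. Dashed lines mark 2-fold and the solid line the median of 0.12. CDX2 and HNF4G lie above the upper dashed line, HNF4A, GATA6 and ISX near the median and GATA6-AS1 on the lower dashed line.

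The genes nearest to each member in the plane of both libraries were found by distance in log2 (CPM plus 1), a likeness over 2 libraries only. For CDX2 these were EIF5, DHX9 and TOMM40, at distances of 0.08 to 0.22. For HNF4G they were MTERF2, YAE1D1 and LOC642852, at 0.02 to 0.08. For GATA6 they were RTCB, RBM17 and MED1, at 0.01 to 0.02.

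Of 20 paralogs and ParaHox relatives of the members, 13 were measured, 1 was higher (7.69%, near the 6.78% of all compared genes) and 0 were lower, with a median log2 ratio of 0.01. TRPS1, an atypical GATA factor that represses transcription, was the higher member at 5.58 and 19.3 CPM (3.47-fold; 2.80 to 4.31). NR2F2, an orphan nuclear receptor and the most abundant of the list, had 473 CPM in control cells and 515 CPM in KO-labelled cells. NR2F6, another orphan receptor, had 119 and 102 CPM. PDX1, the ParaHox neighbour of CDX2 that acts in pancreas and duodenum, had 12.3 and 21.5 CPM, a ratio of 1.75 (1.48 to 2.05), under the 2-fold rule.

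Of 20 partner factors of endoderm, 17 were measured, 1 was higher, 1 was lower and 15 lay between. That is 5.88% in each direction, near the 6.78% and 5.69% of all compared genes. ONECUT2, a cut homeobox factor, was 2.21-fold higher (1.94 to 2.53; 16.1 and 35.6 CPM), but stood under the rule with each other scaling. FOXA3, a forkhead factor of gut and liver, was 3.62-fold lower (2.29 to 5.94; 5.07 and 1.40 CPM). SOX9, the crypt progenitor factor, was the most abundant at 911 and 566 CPM, followed by EHF, an epithelial ETS factor, at 549 and 375 CPM.

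HOX genes mark position along the body and the gut. Of 20 listed, 14 were measured, 1 was higher and 1 was lower, or 7.14% each, near the 6.78% and 5.69% of all compared genes. Their median log2 ratio was -0.18. HOXC6 was 2.67-fold higher (1.91 to 3.77) from 2.47 CPM, and HOXB5 was 2.43-fold lower (2.04 to 2.91) from 24.5 CPM. The most abundant were HOXA10, at 152 and 217 CPM, and HOXB9, at 229 and 125 CPM.

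Of 15 coregulators that bind these factors or nuclear receptors in general, 13 were measured, 3 were higher and 0 were lower (median log2 ratio 0.61). The 3 are 23.1% of those measured, beside 6.78% of all compared genes. PPARGC1A, a coactivator that HNF4A uses in liver, was 3.89-fold higher (2.78 to 5.52) from 2.19 CPM. PPARGC1B was 2.16-fold and the acetyltransferase EP300 2.08-fold higher. PPARGC1B and EP300 stood under the rule with each other scaling, which left 1 higher. SMARCA4, an abundant remodelling ATPase, had 182 and 298 CPM.

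**Figure D4:**
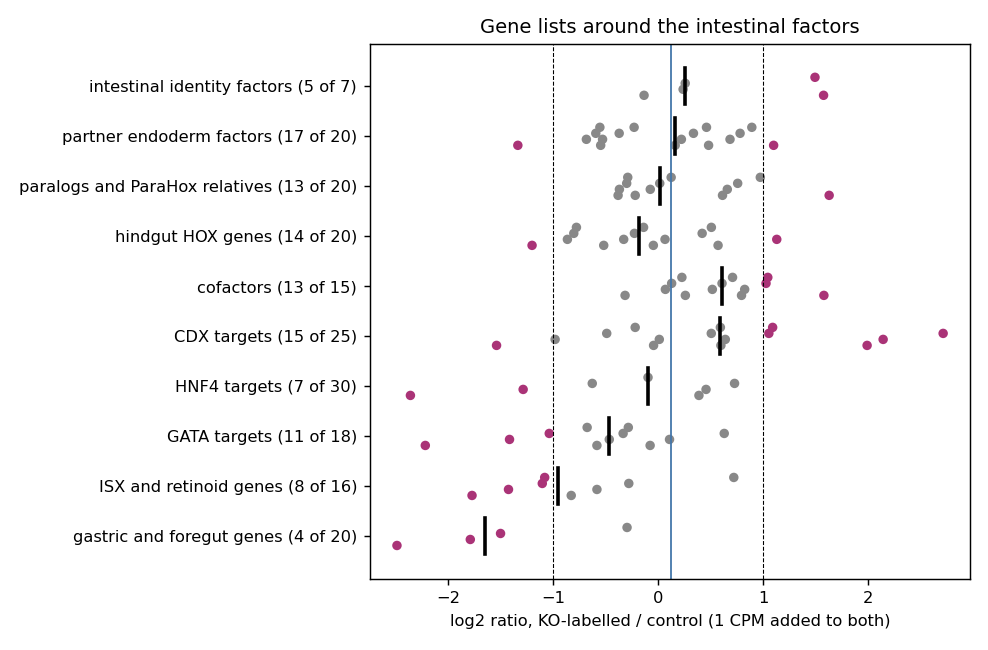
Log2 ratio (KO-labelled over control, 1 CPM added) of each measured gene in the gene lists, with the number measured of the number listed. Black bars are list medians, the blue line is the median of all compared genes (0.12), dashed lines mark 2-fold, and purple points lie past it. Of the measured CDX targets 10 of 15 lie above 0. Genes under the minimum mean of 1 CPM are not drawn, which leaves 4 of 20 gastric and foregut genes.

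Of 25 genes listed as bound or driven by CDX factors, 15 were measured, 5 were higher, 1 was lower and 9 lay between, with a median log2 ratio of 0.59. Over the 20 with any counts the median was 0.23. Of those measured, 33.3% were higher and 6.67% lower, beside 6.78% and 5.69% of all compared genes. The 3 other scalings each left 3 higher and put 2 lower. GUCY2C, the guanylin receptor, was 9.60-fold higher (6.88 to 13.7), from 40 and 288 counts. ABCB1, a drug efflux pump, had 26.7 and 121 CPM (4.54-fold; 4.14 to 4.99). CFTR, the chloride channel, had 49.4 and 199 CPM (4.03-fold; 3.76 to 4.32). TFF3, the goblet cell trefoil peptide, was 3.02-fold lower (2.65 to 3.46; 50.9 and 16.8 CPM). AXIN2 and CDH17, the most abundant members, were within 2-fold: AXIN2, a WNT feedback gene, had 329 and 498 CPM, and CDH17, the liver-intestine cadherin, 167 and 162 CPM. The terminal differentiation genes MUC2, SI, KRT20, SLC26A3 and MS4A12 had 0 counts in both libraries. MUC2 has 3 rows per library and KRT20 has 2, and how reads that fit more than 1 row were counted is not known. Their 0 counts may therefore not show absent RNA.

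Most listed HNF4 targets were under 1 CPM. Of 30, 7 were measured, 0 were higher and 2 were lower (median log2 ratio -0.10), and 9 had 0 counts in both libraries. Those at 0 included the apolipoproteins APOA1, APOA4, APOB and APOC3. The 2 lower genes are 28.6% of those measured, beside 5.69% of all compared genes. SLC5A1, the sodium-glucose cotransporter, had 118 counts in control cells and 4 in KO-labelled cells (22.1-fold lower; 8.41 to 82.5). It reached the minimum mean only through the control library. AGR2, a disulfide isomerase of secretory cells, was 2.45-fold lower (2.35 to 2.55; 449 and 184 CPM). PLS1, a brush border actin bundler, had 260 and 168 CPM.

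Of 18 genes listed for GATA factors, 11 were measured, 0 were higher and 3 were lower, with a median log2 ratio of -0.47, or -0.34 over the 17 with any counts. The 3 are 27.3% of those measured, beside 5.69% of all compared genes. KRT7, a keratin, was 5.33-fold lower (4.27 to 6.74; 28.9 and 5.42 CPM), BMP2 was 3.11-fold lower (2.35 to 4.16) and COL4A1 had 45 and 8 counts. COL4A1 reached the minimum mean only through the control library. BMP4 and LAMB1, the most abundant, were within 2-fold at 441 and 418 CPM and at 235 and 156 CPM.

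Among 16 ISX and retinoid genes, 8 were measured, 0 were higher and 4 were lower (median log2 ratio -0.96, or -0.54 over the 13 with any counts). The 4 are 50% of those measured, beside 5.69% of all compared genes. CRABP2, a retinoic acid carrier, was 5.90-fold lower (3.50 to 10.6) from 126 and 16 counts. It reached the minimum mean only through the control library. CYP26B1, which breaks down retinoic acid, was 2.78-fold lower (2.45 to 3.17; 50.9 and 18.3 CPM), and DHRS3, which reduces retinal, 2.30-fold lower (1.88 to 2.84). ALDH1A1, which makes retinoic acid, was also lower (5.12 and 1.89 CPM). Of the genes that ISX represses, SCARB1, a lipoprotein and carotenoid receptor, had 76.1 and 125.9 CPM (1.65-fold; 1.55 to 1.77), and BCO1 had 10 and 7 counts. The retinoic acid receptor RARG had 142 and 117 CPM.

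CDX2 represses some gastric and foregut genes in normal intestine, and its action on the genes listed here was not tested. Of 20 listed, 4 were measured, 0 were higher and 3 were lower (median log2 ratio -1.65), while over the 11 with any counts the median was -0.19. A further 9 had 0 counts in both libraries, among them MUC5AC and MUC6. The 3 lower genes are 75% of the 4 measured, beside 5.69% of all compared genes. TFF2, a trefoil peptide of stomach, had 131 and 4 counts (24.6-fold lower; 9.37 to 91.5), and reached the minimum mean only through the control library. CLDN18 and CTSE, both under 1 CPM, had 0 and 1 counts in control cells and 4 each in KO-labelled cells. S100P, a calcium-binding protein, had 602 and 173 CPM (3.48-fold lower; 3.34 to 3.62). TFF1, the other gastric trefoil peptide, had 16.9 and 5.30 CPM (3.18-fold lower; 2.51 to 4.06). SOX2, the foregut factor, had 1 count in control cells and 0 in KO-labelled cells.

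Each member was also set beside the 3 nearest protein-coding genes on either side of it. Of 42 such neighbours, 26 were measured, 1 was higher and 1 was lower, beside 6.78% and 5.69% of all compared genes. FITM2, near HNF4A, was 2.17-fold higher (1.83 to 2.57), but not 2-fold with any other scaling, and TIMP3, near ISX, was 8.29-fold lower (6.31 to 11.1). Around CDX2, POLR1D had 247 and 228 CPM, PAN3 45.9 and 47.8 CPM, and PDX1 12.3 and 21.5 CPM, a ratio of 1.75 (1.48 to 2.05). GSX1 had 0 counts in both libraries, and URAD and FLT3 were under 1 CPM. Around HNF4G, 2 of the 6 neighbours were measured, GDAP1 (34.2 and 55.6 CPM) and PEX2 (43.2 and 27.1 CPM).

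The label of a colorectal epithelial line was checked against 10 markers, of which 8 were measured, 0 were higher and 3 were lower (median log2 ratio -0.63). Their summed level was 11619 CPM in control cells and 5682 CPM in KO-labelled cells, and KRT8, KRT18 and KRT19 held most of both sums. The 3 lower markers are 37.5% of the 8 measured, beside 5.69% of all compared genes. EPCAM had 701 CPM in control cells and 750 CPM in KO-labelled cells, and CDH1 had 854 and 704 CPM. CDH17 had 167 and 162 CPM, and VIL1 had 123 and 175 CPM, a ratio of 1.42. The simple keratins KRT8, KRT18 and KRT19 were lower (2.21-fold, 2.85-fold and 2.44-fold), although processed pseudogenes make keratin rows less certain. The colon markers KRT20 and LGALS4 were at 0 and under 1 CPM, but each has 2 rows per library, which makes these levels uncertain too. CEACAM5, another colon marker, had 5.07 and 2.07 CPM. Of 8 liver markers 0 were measured, and ALB and AFP were at 0. Among 8 markers each of pancreas, fibroblast, blood and endothelium, 1 was measured in each case, and INS, COL3A1, PTPRC and CD3E were at 0. The measured fibroblast marker was PDGFRB, at 4.66 CPM in control cells and 2.32 CPM in KO-labelled cells. The pancreas list summed to 4.02 CPM in control cells and 0.853 in KO-labelled cells, with 3.61 and 0.183 CPM of it from PRSS1, whose near-identical paralogs make its row uncertain, and 0.411 and 0.670 CPM from NKX6-1. The summed levels were 5.76 and 2.80 CPM for fibroblast, 2.65 and 1.34 CPM for blood and 10.4 and 7.62 CPM for endothelium. These sums and that of the colon markers were lower in KO-labelled cells, and their part in the values above was not tested.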

How the data were processed

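RNA was sequenced from 1 control and 1 KO-labelled DLD1 culture. The authors deposited raw counts per gene, whole numbers with no normalization, 58173 rows per library. Reads were aligned with TopHat to GRCh38, per the submitters' processing notes. Directional libraries were made from total RNA, per the labels' protocols. The sources used here do not give the counting program, its annotation or its use of strand.

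Rows of 1 symbol were summed and scaled to counts per 1000000 by the column total. Log2 ratios carry a pseudocount of 1 CPM, and the compared genes had a mean of 1 CPM or more. Folds are ratios of CPM with exact Clopper-Pearson intervals conditional on the summed count. PCR duplicates are not independent molecules, so intervals may be too narrow. No test was possible with 1 library per group. Alternatives were TMM and upper-quartile scaling (edgeR 4.0.16), the median of gene ratios (DESeq2 1.42.0), pseudocounts of 0.1 and 5 CPM, no filter and a 5 CPM minimum. Scripts ran in Python 3.11.15 and were tested on simulated data.

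The members and lists were chosen with earlier results of these data known. All members are named. Of each other list, up to 3 genes past 2-fold in each direction and the 2 most abundant were named. Other names were chosen after their values were seen. A gene that the rule names is not reported here.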

Additional observations from a re-analysis of the deposited data

How the results depend on the processing

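The members' counts of 2 higher and 0 lower were the same under all 7 alternatives. Of 31 genes past 2-fold among the members, GATA6-AS1, the gene lists (cell type markers left out) and the neighbours, 14 stayed past it in all 5 scalings and pseudocounts tried and 0 changed sign. Over all compared genes, 544 were higher with the median of gene ratios, against 857 by column totals, and with a pseudocount of 5 CPM 426 were higher and 371 lower. With TMM, with the upper quartile and with the median of gene ratios alike, 3 CDX targets were higher and 2 lower, 1 cofactor was higher, 0 partner factors were higher, and 0 neighbours were higher and 2 lower. The upper quartile, the median of gene ratios and a pseudocount of 0.1 CPM each put 2 HOX genes lower. With 0.1 CPM, 2 partner factors and 3 paralogs and ParaHox relatives were higher, and 2 CDX targets were lower. With 5 CPM, 0 partner factors and 0 HOX genes were higher or lower, 0 cofactors and 0 neighbours were higher, and 1 HNF4 target, 1 GATA target and 1 ISX or retinoid gene were lower. With a minimum mean of 5 CPM, 0 partner factors were lower, 0 HOX genes were higher, and 1 HNF4 target and 2 ISX or retinoid genes were lower, as fewer genes were tested. With no filter the median log2 ratio of all genes with counts was 0.06. The other scalings move the ratio of library sizes by -0.12 to -0.16 on the log2 scale, and the log2 ratios of low genes by less, as 1 CPM is added. The balance of all calls moved with scaling: 601 were higher and 879 lower with TMM, 574 and 917 with the upper quartile, and 544 and 945 with the median of gene ratios. No paired analysis was possible because each group has 1 library. Depth limits CDX1, GATA4 and ISX most, as 1 count is 0.0457 CPM in control cells and 0.0610 CPM in KO-labelled cells.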
